A study of Homo sapiens with 24 samples.

Results

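The HOX genes of clusters A, B, C and D were examined in poly(A) RNA sequencing of 6 lines of H1299, which derives from a non-small cell carcinoma of the human lung and lacks p53. The members were the rows of the gene count table whose symbol was HOXA, HOXB, HOXC or HOXD followed by a number. They were 39 of 60564 rows, with 11 in HOXA, 10 in HOXB, 9 in HOXC and 9 in HOXD. Control cells carried the vector only and had 4 libraries. The other lines had received a plasmid and stably expressed a shortened p53 isoform, either Δ133p53α (lines Δ133p53α1, Δ133p53α2 and Δ133p53α8, with 4 libraries each) or Δ133p53β (Δ133p53β5 with 3 libraries and Δ133p53β10 with 4). Each isoform line was 1 clone, so the libraries of a line describe that clone and are not independent clones. The sources did not state whether libraries of 1 line came from separate cultures, and the p-values measure only the spread between these libraries. For 1 further library the labels named Δ133p53β10, whereas the count table held 4 columns for each Δ133p53β clone. It is called the disputed library, and it was kept out of every comparison.

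HOX genes encode homeodomain transcription factors that give cells their position along the body axis of the embryo. They lie in clusters in which low paralog numbers mark the anterior end and high numbers the posterior end, and the order on the chromosome follows the order of expression along the axis. Polycomb complexes keep unused HOX genes silent, Trithorax proteins keep used ones active, and retinoic acid and CDX factors act on the clusters in the embryo. Adult cells, lung epithelium included, often keep a HOX pattern that reflects their origin, and tumour cells often carry an altered one.

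The gene counts summed to 21531599 to 25381731 per library, and 0.0493% to 0.0824% of them fell on HOX genes. Levels are given as CPM, the counts scaled to a common library size with TMM factors. Of the markers of the labelled carcinoma line, the keratins KRT8 and KRT18 and the intermediate filament gene VIM were abundant. EPCAM had 10 reads or fewer in each line, and only 3 of the 6 epithelial genes listed had enough reads to be tested. Against control, the lowest of 3 listed mesenchymal genes was at log2 -1.69 in Δ133p53β5 and -1.65 in Δ133p53β10, and the highest at 0.74 and 0.54. The 3 endothelial genes listed summed to 0.0422 to 0.337 CPM in control and 0.136 to 0.929 in the other libraries. The blood cell genes PTPRC and CD3E had 0 reads. CD68, also on the blood list, had 0.561 to 0.997 CPM in control and 0.458 to 2.36 in the other libraries. The 5 lung lineage genes listed summed to 0.253 to 0.499 CPM in control and 0.123 to 0.788 in the other libraries, with SCGB1A1 at 0. The 24 libraries fell into 2 sets of 12 by how their levels ran with gene length, and both sets were present in every line. The Spearman correlation across genes between a library's deviation from the mean and exon length was 0.182 to 0.299 in the positive set and -0.265 to -0.114 in the negative set. Control had 3 positive libraries and 1 negative, as had the libraries of Δ133p53α2 and Δ133p53α8, whereas Δ133p53α1 and Δ133p53β10 had 1 positive and 3 negative and Δ133p53β5 had 1 and 2. The disputed library was negative. Of the 35 differences of single HOX genes that passed the adjusted p threshold described below over both sets, 7 passed in a fit of the positive set alone (5 of them those of HOXA10 and HOXB2) and 1 in a fit of the negative set alone, that of HOXA10 between the isoforms. Fits of 1 set rest on fewer libraries, and in either set some lines have only 1 library. A difference that does not pass in such a fit is not shown to be absent.

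The HOX pattern was that of a HOXB-rich line. HOXB took 71.8% of HOX counts on average in control and between 72.1% and 79.6% in the isoform lines, and HOXD took 3.5% in control. Per kb of exon, over the 23 libraries other than the disputed one, the highest level was that of HOXB2, with 81.9 CPM per kb ± 26.9 (SD, n = 23 libraries), followed by HOXB4 with 39.9, HOXB7 with 34.3 and HOXB9 with 24.7. HOXA7 led its cluster with 8.96 CPM per kb ± 1.4, HOXC8 with 8.39 ± 1.89 and HOXD9 with 9.45 ± 5.05. HOXC8 and HOXC10 were close, at 8.39 and 8.18, and did not differ beyond their spread. Per kb of the longest transcript instead, HOXC10 (9.81) and HOXC9 (8.48) were above HOXC8 (8.39). On that scale HOXB2 (120), HOXA7 (10.7) and HOXD9 (9.45) still led their clusters. HOXC12 had 0 reads in all 24 libraries, and HOXB1, the most anterior HOXB gene, had 1 read. Within HOXB the level did not follow the order of the genes, since HOXB2 and HOXB9 were both high while HOXB5 (1.2 CPM per kb), HOXB6 (2.26) and HOXB8 (1.56) between them were low.

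As sums over a cluster, HOXD stood apart in the isoform lines. The summed HOXD level was 17.8 CPM ± 4.07 (SD, n = 4) in control, with libraries from 12.2 to 21.3. It was 38 ± 6.94 in Δ133p53α1, 37.5 ± 13.7 in Δ133p53α2 and 34.6 ± 3.1 in Δ133p53α8. The Δ133p53β5 sum was 35.5 ± 3.81 and the Δ133p53β10 sum 41.4 ± 14.2. The lowest isoform library, at 24.9, was above the highest control library. The HOXA sum was 52.7 ± 8.69 in control and had means of 36.7 to 44 in the isoform lines, with libraries that overlapped control in Δ133p53α1, Δ133p53β5 and Δ133p53β10. The HOXB sum had means of 390 to 606 against 372 ± 47.4 in control, and the HOXC sum had means of 72 to 79.5 against 74.6 ± 3.8. The sums weigh the abundant genes most and were not tested.

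**Figure D1:**
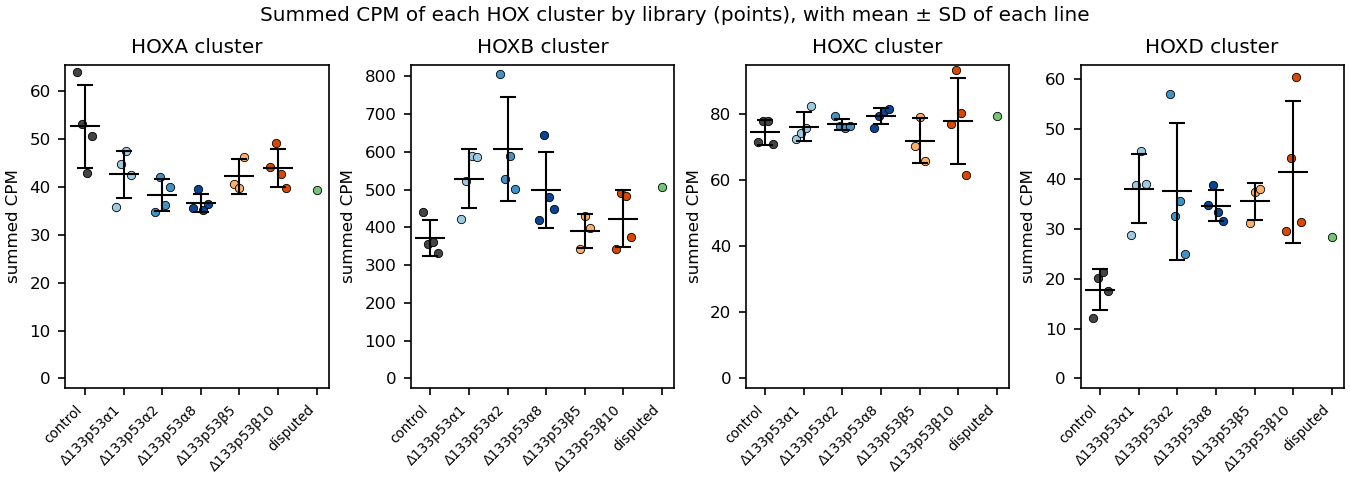
Summed CPM of the genes of each HOX cluster in every library (points), with the mean and SD of each line. All isoform libraries lay above the highest control library (21.3 CPM) for HOXD, whereas the HOXC sums of control and isoform lines overlapped.

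Each line was compared with control by edgeR's quasi-likelihood test across 18295 genes, of which 31 were HOX genes. The other 8 (HOXA2, HOXA11, HOXB1, HOXC5, HOXC11, HOXC12, HOXD10 and HOXD12) had too few reads and are described by their counts. A call needed both an adjusted p below 0.05 (Benjamini-Hochberg, over all 18295 genes) and a difference of 1.5 or more on the log2 scale, up or down. In Δ133p53α1, 4 HOX genes were called, against 2.59% of all genes. Δ133p53α2 had 2 calls (2.8% of all genes), Δ133p53α8 had 2 (2.5%), Δ133p53β5 had 0 (4.2%) and Δ133p53β10 had 3 (4.7%). The called genes were HOXA10, HOXD3, HOXD9 and HOXD11. HOXD11 was tested only because 3 isoform libraries reached the filter's minimum of 10 reads at the median library size, which 0 control libraries did, so it had to differ from control, and without it the calls numbered 3, 1, 1, 0 and 2 in the order of the lines above. By adjusted p alone, 6 HOX genes passed in Δ133p53α1 (4.87% of all genes), 8 in Δ133p53α2 (5.31%) and 6 in Δ133p53α8 (4.48%), while Δ133p53β5 had 4 (7.98%) and Δ133p53β10 had 7 (9.82%). Without HOXD11 these numbers were 5, 7, 5, 4 and 6 in the same order. In all, 12 of the 31, HOXD11 among them, passed in at least 1 line, against 15.2% of all genes. In Δ133p53β5, where edgeR called 0 HOX genes, DESeq2 and limma also called 0, which does not show that these genes are unchanged. HOX genes whose libraries lay wholly above control numbered 6 in Δ133p53α1 (5.02% of all genes), 6 in Δ133p53α2 (3.95%) and 6 in Δ133p53α8 (4.98%), while Δ133p53β5 had 6 (11.6%) and Δ133p53β10 had 5 (4.95%). HOXD11 was among these in Δ133p53α1, Δ133p53β5 and Δ133p53β10. HOX genes wholly below control numbered 5 (5.82%), 5 (5.27%), 5 (5.06%), 9 (12.4%) and 4 (6.75%) in the same order of lines. The 5 comparisons share the same control libraries, so agreement between lines is not independent.

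The medians of HOXA and HOXD lay on different sides of 0. The median log2 fold change of the 9 HOXA genes tested was below 0 in every line, from -0.86 in Δ133p53α2 to -0.28 in Δ133p53β10, and that of the 7 HOXD genes was above 0 in every line, from 0.93 in Δ133p53α8 to 1.43 in Δ133p53β10. Without HOXD11, the medians of the other 6 HOXD genes lay between 0.81 and 1.22, and all 6 had values above 0 in each of the 5 lines. The medians of the 9 HOXB genes lay between -0.23 and 0.45 and those of the 6 HOXC genes between -0.02 and 0.15. The median of all genes tested lay between -0.05 and 0.03. A test for any difference among the 6 lines passed at an adjusted p under 0.05 for 8 of the 31 HOX genes (among them HOXA4, HOXA10, HOXB3, HOXB9, HOXC4, HOXD4 and HOXD8), against 10.1% of all genes.

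**Figure D2:**
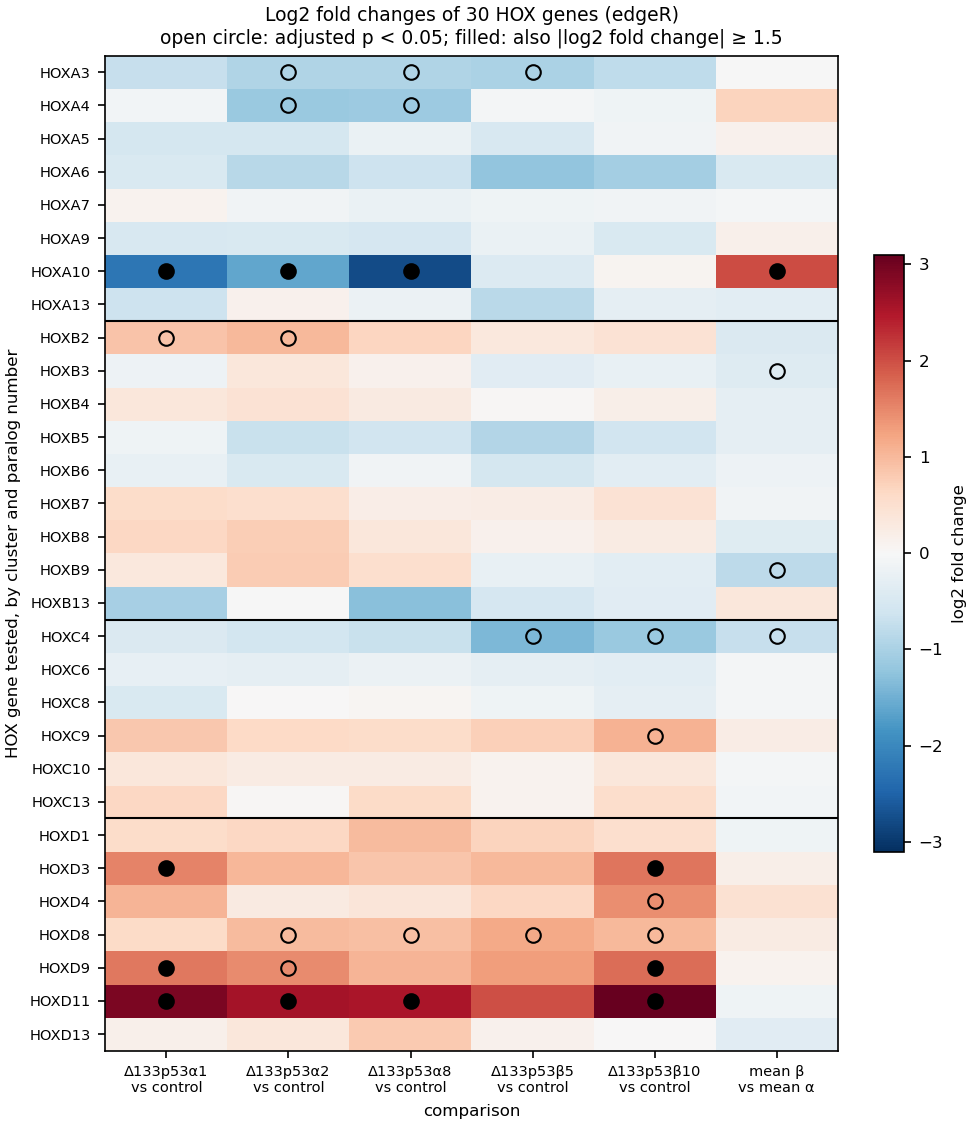
Log2 fold change (colour) of 30 of the HOX genes tested, by cluster and paralog number, in each line against control and in the mean of the Δ133p53β lines against the mean of the Δ133p53α lines. Open circles mark an adjusted p under 0.05 and filled circles a call. HOXA10 was called lower in the 3 Δ133p53α lines (log2 -2.23, -1.6 and -2.78), and the calls among HOXD genes were all higher.

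HOXA10, a posterior HOXA gene known for its roles in the uterus, the limb and blood cell development, showed the clearest difference between the isoforms. It lies at chr7:27170605-27180261 on the minus strand (GRCh38, GENCODE). The 250 bases upstream of one of its starts (chr7:27174321-27174570, minus strand, 5′ to 3′, RefSeq, GRCh38.p14) are shown because this gene carried the strongest call. Capitals mark a match to TATAAA on either strand.

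HOXA10: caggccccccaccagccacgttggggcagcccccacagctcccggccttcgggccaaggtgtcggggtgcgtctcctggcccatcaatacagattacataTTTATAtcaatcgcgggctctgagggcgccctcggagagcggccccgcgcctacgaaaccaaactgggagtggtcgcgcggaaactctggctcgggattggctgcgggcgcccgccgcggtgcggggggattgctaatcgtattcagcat

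The 4 control libraries had 5.64, 4.34, 3.74 and 3.84 CPM of HOXA10. In Δ133p53α1 the libraries had 0.867, 1.58, 0.781 and 0.489, in Δ133p53α2 1.08, 1.94, 1.44 and 1.29, and in Δ133p53α8 0.595, 0.649, 0.591 and 0.71. In Δ133p53β5 they had 3.33, 2.73 and 3.71 and in Δ133p53β10 5.14, 4.31, 3.1 and 6.11. All 12 Δ133p53α libraries were below every control and every Δ133p53β library, the Δ133p53β5 libraries were just below the lowest control library, and the Δ133p53β10 libraries overlapped control. HOXA10 was 4.7-fold lower than control in Δ133p53α1 (log2 -2.23 ± 0.303 SE, adjusted p = 8.04e-05), 3.04-fold lower in Δ133p53α2 (log2 -1.6 ± 0.292, adjusted p = 0.00136) and 6.85-fold lower in Δ133p53α8 (log2 -2.78 ± 0.31, adjusted p = 6.53e-06). In Δ133p53β5 the log2 difference was -0.43 (adjusted p = 0.453) and in Δ133p53β10 0.09 (adjusted p = 0.852). In these bulk libraries, fewer cells with a transcript and less of it per cell cannot be told apart.

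The difference between the isoforms was tested directly. The mean of the Δ133p53β lines was 4.09-fold above the mean of the Δ133p53α lines for HOXA10 (log2 2.03 ± 0.192 SE, adjusted p = 5.74e-07), and it was the 1 HOX gene called there, against 1.4% of all genes. It was also the 1 HOX gene whose Δ133p53β libraries lay wholly above the Δ133p53α libraries (0.383% of all genes), and 0 lay wholly below (0.465%). The difference between the isoforms stayed between 2.02 and 2.14 under the alternatives tried. Without any single library, HOXA10 stayed past the adjusted p threshold in the 3 Δ133p53α lines and between the isoforms, and its log2 value in Δ133p53α2 was -1.78 to -1.46. Within the positive set the HOXA10 differences from control were -2.19, -1.32 and -2.63 in Δ133p53α1, Δ133p53α2 and Δ133p53α8, and within the negative set, which has 1 control library, they were -2.55, -2.39 and -3.1. In the negative set alone the 3 lines no longer passed the threshold (adjusted p = 0.0973 to 0.412), while the difference between the isoforms passed (2.14, adjusted p = 0.0289). The disputed library had 4.32 CPM of HOXA10, within the range of the Δ133p53β10 and control libraries.

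**Figure D3:**
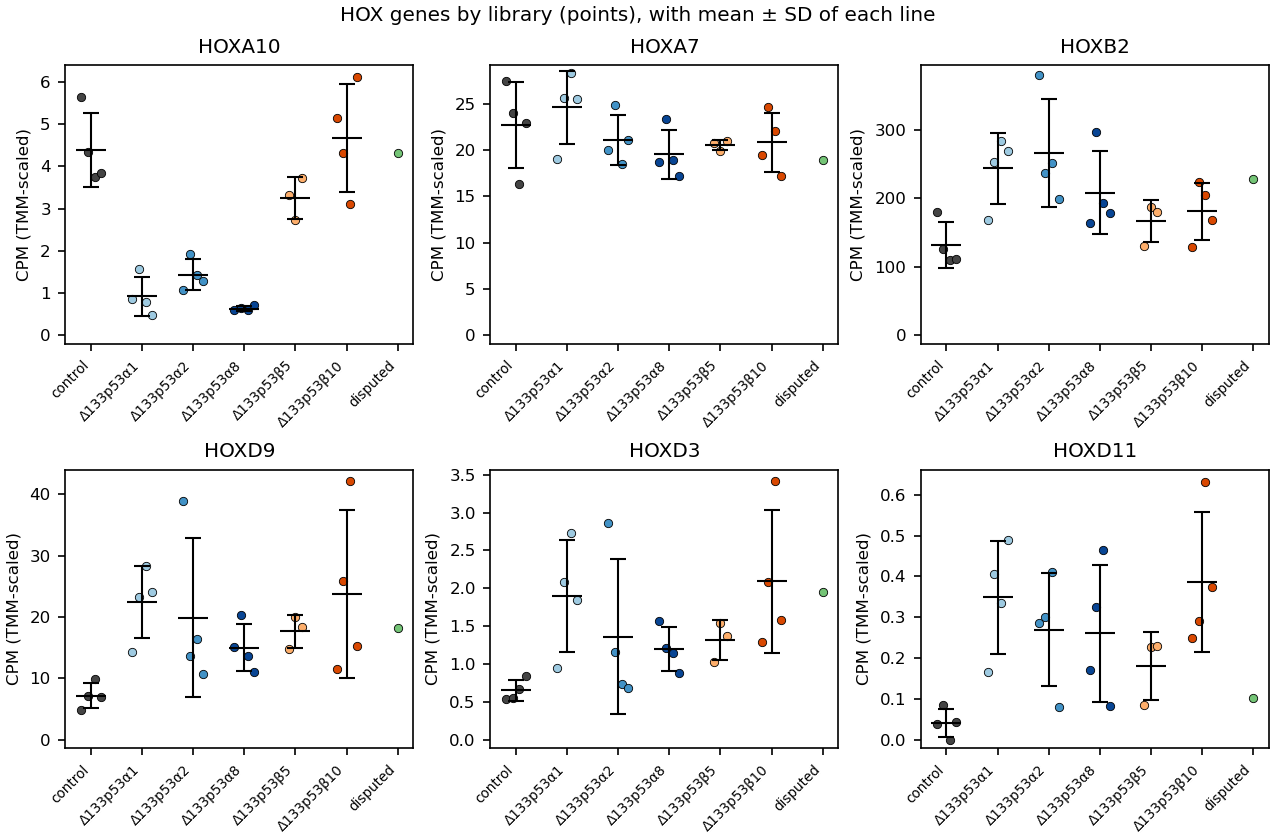
CPM (TMM-scaled) of 6 HOX genes in every library (points), with the mean and SD of each line and the disputed library alone. HOXA10 was at 1.94 CPM or lower in all 12 Δ133p53α libraries and at 2.73 or higher in all others, whereas HOXD9 was above every control library in all isoform libraries.

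HOXA3, an anterior gene of the pharyngeal arches, was below every control library in all isoform libraries, with a mean of 1.83 CPM ± 0.389 in control against 0.923 to 1.12 in the isoform lines. It fell by 0.93 in Δ133p53α2, 0.93 in Δ133p53α8 and 0.98 in Δ133p53β5 (adjusted p = 0.0385, 0.0402 and 0.0347). HOXA3 no longer passed in any of the 3 lines without control replicate 1, 3 or 4, and in each line the same held for at least 2 of its own libraries (largest adjusted p 0.126, 0.136 and 0.202). In Δ133p53α2 and Δ133p53α8 it also held for Δ133p53β5 replicate 1 and Δ133p53β10 replicate 2. Within either set alone HOXA3 passed in none of the 3 lines, at -0.74, -0.68 and -0.95 in the positive set and -1.37, -1.64 and -1.26 in the negative set (adjusted p = 0.185 to 0.821).

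HOXA4 divided the Δ133p53α clones. It fell by 1.15 on the log2 scale in Δ133p53α2 and 1.13 in Δ133p53α8 (adjusted p = 0.0351 and 0.0426), with means of 0.783 CPM ± 0.0717 and 0.799 ± 0.237 against 1.75 ± 0.539 in control. In Δ133p53α1 it had 1.66 CPM ± 0.508 and a log2 difference of -0.09, close to the means of 1.69 in Δ133p53β5 and 1.61 in Δ133p53β10. The test for any difference among the 6 lines passed for HOXA4 (adjusted p = 0.0254). HOXA4 no longer passed in Δ133p53α2 without any 1 of its own libraries or control replicate 1 or 2 (adjusted p up to 0.12). In Δ133p53α8 it passed in 11 of the 23 fits that leave out a library (adjusted p up to 0.172), and not with the disputed library counted in Δ133p53β10. Within either set alone it passed in neither line, at -0.84 and -0.9 in the positive set and -1.89 and -1.59 in the negative set (adjusted p = 0.0963 to 0.97). HOXA4 shares 31.3% of its exon length with another gene on the same strand. HOXA5, HOXA6, HOXA7, HOXA9 and HOXA13 passed in no line, with log2 differences from -1.22 (HOXA6 in Δ133p53β5) to 0.14 (HOXA13 in Δ133p53α2).

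HOXA7 was the most abundant HOXA gene per kb. Its libraries had 27.5, 24, 16.4 and 22.9 CPM in control. The Δ133p53α1 libraries had 19, 25.6, 28.3 and 25.5, those of Δ133p53α2 had 20.1, 24.8, 18.5 and 21.1, and those of Δ133p53α8 had 18.7, 23.4, 18.9 and 17.2. Those of Δ133p53β5 had 20.7, 19.9 and 21 and those of Δ133p53β10 had 19.5, 24.6, 22 and 17.2. The groups overlapped in every comparison. The log2 differences of HOXA7 from control were -0.21 to 0.12 with standard errors of 0.181 to 0.196, and the adjusted p was 0.666 or higher. HOXA7 shares 62.5% of its exon length with the antisense gene HOXA-AS3 on the other strand. HOXA9, the gene next to HOXA10, had 10.7 CPM in control and 7.45 to 9.31 in the isoform lines, and across the 24 libraries its Pearson correlation with HOXA10 was 0.355 on the log scale.

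HOXD9, a posterior HOXD gene of the developing limb and trunk that lies at chr2:176122719-176124937 (GRCh38) and shares no exon with another annotated gene, was higher in every isoform library than in any control library. The control libraries had 4.87, 7.19, 9.88 and 6.88 CPM. In Δ133p53α1 they had 14.3, 23.3, 28.3 and 24, in Δ133p53α2 38.95, 13.6, 16.4 and 10.7, and in Δ133p53α8 15.2, 20.3, 13.7 and 11. In Δ133p53β5 they had 14.7, 19.97 and 18.3 and in Δ133p53β10 11.5, 26, 42.2 and 15.3. Replicate 1 of Δ133p53α2 and replicate 3 of Δ133p53β10 were the highest of all, and the disputed library had 18.2. HOXD9 rose 3.12-fold in Δ133p53α1 (log2 1.64 ± 0.4 SE, adjusted p = 0.0191), 2.76-fold in Δ133p53α2 (1.46 ± 0.398, adjusted p = 0.0334) and 3.29-fold in Δ133p53β10 (1.72 ± 0.4, adjusted p = 0.00798). In Δ133p53α8 the log2 difference was 1.06 (adjusted p = 0.161) and in Δ133p53β5 1.29 (adjusted p = 0.0619).

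The size of the HOXD9 difference moved with the set of the library. Within the positive set it was 0.83, 0.78, 0.74, 0.89 and 0.52 on the log2 scale in Δ133p53α1, Δ133p53α2, Δ133p53α8, Δ133p53β5 and Δ133p53β10, and none of these passed the threshold (adjusted p = 0.0552 to 0.428). Within the negative set, against 1 control library, it was 2.37, 2.98, 2.06, 2 and 2.52, and none of these passed either (adjusted p = 0.0608 to 0.534). With the set as a term in the fit, HOXD9 was at 1.17 in Δ133p53α1 (adjusted p = 0.0392), 1.27 in Δ133p53α2 (adjusted p = 0.00993) and 1.21 in Δ133p53β10 (adjusted p = 0.0196). The epithelial markers also moved with the lines. The summed level of the 6 listed was 874 to 1650 CPM in control and 1860 to 7730 in the isoform libraries, nearly all of it from KRT8 and KRT18, with EPCAM at or near 0, and their part in the result was not tested. HOXD9 no longer passed in Δ133p53α1 without Δ133p53α1 replicate 2 or 3 or control replicate 1, 2 or 4 (adjusted p up to 0.0711). It no longer passed in Δ133p53α2 without its replicate 1, where the value was 0.9 (adjusted p = 0.19), or without control replicate 1, 2 or 4. In Δ133p53β10, HOXD9 passed without any single library, at 1.27 to 1.95.

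HOXD3 and HOXD11 were the other HOXD genes called. HOXD3 is an anterior gene of the axial skeleton at chr2:176136612-176173102, and HOXD11 is a posterior gene of the forearm and kidney at chr2:176104216-176109754, both on the plus strand. Their upstream bases are shown because both were called and have an entry in the promoter table, HOXD3 for chr2:176157057-176157306 and HOXD11 for chr2:176107030-176107279. Capitals in HOXD11 mark a match to TGATNNAT, the letters of a HOX and PBX paired site, on either strand. Among 35116 promoter windows of this length, TGATNNAT was found in 6.5% and TATAAA in 10.7%. They were found in 11.5% and 19.2% of the 26 windows of the 20 HOX genes in the table. The windows of HOXA10, HOXD3 and HOXD11 hold 24, 21 and 23 CG pairs, against a median of 19 in the HOX windows and 11 in all.

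HOXD3: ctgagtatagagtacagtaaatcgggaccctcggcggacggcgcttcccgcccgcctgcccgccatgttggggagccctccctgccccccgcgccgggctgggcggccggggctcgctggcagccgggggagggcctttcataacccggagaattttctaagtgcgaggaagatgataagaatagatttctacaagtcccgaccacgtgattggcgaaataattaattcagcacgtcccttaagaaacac
HOXD11: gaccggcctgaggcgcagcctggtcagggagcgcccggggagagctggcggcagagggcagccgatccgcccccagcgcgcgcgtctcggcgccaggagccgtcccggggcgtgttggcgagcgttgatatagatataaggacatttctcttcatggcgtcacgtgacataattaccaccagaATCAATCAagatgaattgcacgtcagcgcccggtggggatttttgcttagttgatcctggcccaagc

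The control libraries had 0.537, 0.553, 0.674 and 0.845 CPM of HOXD3. The Δ133p53α1 libraries had 0.949, 2.08, 2.73 and 1.85, those of Δ133p53α2 had 2.86, 1.16, 0.74 and 0.687, and those of Δ133p53α8 had 1.57, 1.21, 1.14 and 0.877. Those of Δ133p53β5 had 1.02, 1.55 and 1.37 and those of Δ133p53β10 had 1.28, 2.08, 3.42 and 1.58. Replicates 3 and 4 of Δ133p53α2 overlapped control, and the other isoform libraries did not. HOXD3 rose 2.89-fold in Δ133p53α1 (log2 1.53 ± 0.43 SE, adjusted p = 0.0424) and 3.18-fold in Δ133p53β10 (1.67 ± 0.429, adjusted p = 0.0162), with values of 1.04, 0.87 and 1.01 in Δ133p53α2, Δ133p53α8 and Δ133p53β5 that did not pass. With the set of the libraries as a term, HOXD3 was at 1.08 in Δ133p53α1 (adjusted p = 0.0997) and at 1.23 in Δ133p53β10 (adjusted p = 0.0328). Within the positive set the values were 0.45 and 0.88, and within the negative set 2.04 and 2.12, and none of these passed (adjusted p = 0.14 to 0.913). In Δ133p53α1, HOXD3 did not pass in 13 of the 23 fits that leave out a library, among them those without any 1 control library (adjusted p up to 0.175). In Δ133p53β10 it did not pass without Δ133p53β10 replicate 3 or control replicate 2 (adjusted p up to 0.0762). Across the 24 libraries, HOXD3 ran with HOXD9 (Pearson r = 0.901 on the log scale, a description over libraries that share lines and sets). HOXD3 shares 14.1% of its exon length with genes on the other strand, HOXD-AS2 among them.

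HOXD11 had few reads. The control libraries had 1, 2, 0 and 1 reads. The Δ133p53α1 libraries had 4, 8, 6 and 9, those of Δ133p53α2 had 5, 7, 10 and 2, and those of Δ133p53α8 had 4, 7, 11 and 2. Those of Δ133p53β5 had 2, 5 and 5 and those of Δ133p53β10 had 6, 6, 12 and 9. The isoform libraries were mostly higher, and 1 library each of Δ133p53α2, Δ133p53α8 and Δ133p53β5 had only the 2 reads of the highest control library. Summed over libraries and scaled, HOXD11 was 8.41-fold above control in Δ133p53α1 (95% exact interval 2.93 to 33.1, from 27 against 4 reads), 6.68-fold in Δ133p53α2 (2.29 to 26.5), and 6.47-fold in Δ133p53α8 (2.22 to 25.6). The Δ133p53β5 ratio was 4.46 (1.35 to 19) and the Δ133p53β10 ratio 9.39 (3.34 to 36.5). These intervals cover counting error only. Since HOXD11 entered the test only through isoform libraries, its edgeR values are a description. They were past the threshold in Δ133p53α1, Δ133p53α2, Δ133p53α8 and Δ133p53β10 (adjusted p = 0.0159, 0.0348, 0.0421 and 0.00599) and not in Δ133p53β5 (adjusted p = 0.128), and in the 4 lines that passed, none did within either set alone (adjusted p = 0.139 to 1). Of the 23 fits that leave out a library, 3 did not test HOXD11. Of the other 20, it passed in 20 for Δ133p53β10, 17 for Δ133p53α1, 15 for Δ133p53α2 and 9 for Δ133p53α8. It did not pass in Δ133p53α1 without its replicate 2 or 4 or control replicate 3, in Δ133p53α2 without its replicate 1 or 2 or control replicate 1, 3 or 4, or in Δ133p53α8 without its replicate 1 or 2, those control libraries or 1 of 6 libraries of other lines. HOXD11 shares 21.4% of its exon length with HOXD10 on the same strand.

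HOXD8, which lies between HOXD9 and HOXD4, rose in 4 of the 5 lines. HOXD8 shares 24.4% of its exon length with HOXD-AS2 on the other strand. Its mean was 4.35 CPM ± 1.63 (SD, n = 4) in control, against 6.59 ± 0.791, 8.64 ± 0.884 and 8.3 ± 1.27 in the Δ133p53α lines (1, 2 and 8), 9.86 ± 1.92 in Δ133p53β5 and 8.76 ± 1.7 in Δ133p53β10. HOXD8 passed at log2 0.99, 0.93, 1.18 and 1.01 in Δ133p53α2, Δ133p53α8, Δ133p53β5 and Δ133p53β10 (adjusted p = 0.0116, 0.0199, 0.00388 and 0.00702) and not in Δ133p53α1 (0.6, adjusted p = 0.123), and with the set of the libraries as a term the log2 values were the same. It no longer passed in Δ133p53α8 without that line's replicate 1 or control replicate 1 or 4 (adjusted p up to 0.0722). Within the positive set alone HOXD8 passed in none of the 4 lines, at 0.88, 0.69, 0.78 and 1.06 (adjusted p = 0.0531 to 0.253), nor within the negative set, at 1.5, 1.77, 1.9 and 1.51 (adjusted p = 0.0713 to 0.364). The disputed library, at 4.89, was near the control mean. HOXD4 passed in Δ133p53β10, at 1.43 (adjusted p = 0.00595), from 0.337 CPM ± 0.129 in control to 0.924 ± 0.236, but not within the positive set (1.26, adjusted p = 0.284) or the negative set (1.98, adjusted p = 0.227). HOXD1 (0.52 to 0.97) and HOXD13 (0.02 to 0.81), the ends of the cluster, passed in no line.

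HOXB2, a hindbrain gene and the most abundant HOX gene, had 179.9, 126, 109.7 and 112 CPM in the control libraries. The Δ133p53α1 libraries had 169, 253, 283 and 268, the Δ133p53α2 libraries 379.8, 236.5, 251 and 198, and the Δ133p53α8 libraries 164.5, 296, 193 and 179. The Δ133p53β5 libraries had 131, 187 and 180.5 and the Δ133p53β10 libraries 129, 223, 205 and 168. Only the Δ133p53α2 libraries lay wholly above control, whose replicate 1 was the highest control library. HOXB2 rose 1.85-fold in Δ133p53α1 (log2 0.88 ± 0.252 SE, adjusted p = 0.0462) and 2.02-fold in Δ133p53α2 (1.01 ± 0.253, adjusted p = 0.0187), and was at 0.66 in Δ133p53α8 (adjusted p = 0.175), 0.33 in Δ133p53β5 and 0.46 in Δ133p53β10. With the set of the libraries as a term, HOXB2 was at 0.56, 1.01 and 0.65 in the Δ133p53α lines (adjusted p = 0.00912, 6.97e-06 and 0.00118), at 0.08 and 0.14 in Δ133p53β5 and Δ133p53β10 (adjusted p = 0.747 and 0.535), and at -0.63 for the Δ133p53β mean against the Δ133p53α mean (adjusted p = 4.52e-05). The same isoform difference without that term was -0.46 (adjusted p = 0.157). In Δ133p53α1, HOXB2 passed in 7 of the 23 fits that leave out a library (adjusted p up to 0.158), and in Δ133p53α2 it did not pass without its replicate 1 or control replicate 2, 3 or 4 (up to 0.0796). Within the positive set alone HOXB2 was at 0.54 in Δ133p53α1 (adjusted p = 0.434) and 1.01 in Δ133p53α2 (adjusted p = 0.00195), and within the negative set at 0.58 and 1.06 (adjusted p = 0.405 and 0.241).

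The rest of HOXB passed in no line. HOXB4, HOXB7 and HOXB8 had log2 differences of 0.03 to 0.77, all above 0, and HOXB5, HOXB6 and HOXB13 of -1.3 to -0.02, all below 0. Between the isoforms, HOXB9, a trunk and mammary gene, was 1.77-fold lower in the Δ133p53β mean than in the Δ133p53α mean (log2 -0.82 ± 0.192 SE, adjusted p = 0.0126). Its means were 67.2 CPM ± 7.22, 92.3 ± 38.5 and 76.8 ± 11.3 in the Δ133p53α lines and 45.5 ± 5.68 and 42.9 ± 14.5 in the Δ133p53β lines, around the 53.5 ± 15.4 of control. The isoform groups overlapped, and the adjusted p was 0.0597 without Δ133p53β5 replicate 3. HOXB3 was 1.31-fold lower in the Δ133p53β mean (log2 -0.39, adjusted p = 0.0405), and this passed in 9 of the 23 fits that leave out a library (adjusted p up to 0.126). Within a set neither passed, with HOXB9 at -0.74 and -1.05 (adjusted p = 0.336 and 0.0576) and HOXB3 at -0.38 and -0.35 (adjusted p = 0.473 and 0.231) in the positive and negative sets. By adjusted p alone, 4 HOX genes differed between the isoforms, against 4.72% of all genes.

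HOXC4, the most anterior HOXC gene, was lower in the Δ133p53β lines. Its mean was 6.23 CPM ± 1.84 (SD, n = 4) in control, 4.6 ± 1.36, 4.2 ± 0.915 and 3.84 ± 0.779 in Δ133p53α1, Δ133p53α2 and Δ133p53α8, 2.36 ± 0.222 in Δ133p53β5 and 2.8 ± 0.566 in Δ133p53β10. HOXC4 fell 2.64-fold in Δ133p53β5 (log2 -1.4 ± 0.283 SE, adjusted p = 0.00319) and 2.22-fold in Δ133p53β10 (-1.15 ± 0.255, adjusted p = 0.00563), and it passed in both without any single library, but in neither within the positive set alone (-1.26 and -1.16, adjusted p = 0.176 and 0.206) or the negative set alone (-1.54 and -1.25, adjusted p = 0.194 and 0.231). The log2 values in the Δ133p53α lines were -0.44, -0.57 and -0.7 and did not pass. The difference between the isoforms was -0.71 ± 0.176 (adjusted p = 0.0203), which did not pass without Δ133p53β5 replicate 2 or 3 (adjusted p up to 0.0836), with no filter on low counts, with the replicate block (-0.69, adjusted p = 0.0535) or within either set (-0.61 and -0.88, adjusted p = 0.615 and 0.118). HOXC4 shares 17.5% of its exon length with HOXC6 and another gene on the same strand, and HOXC6 passed in no line (-0.32 to -0.18). HOXC9 passed in Δ133p53β10, at 1.07 (adjusted p = 0.0253), but not without Δ133p53β10 replicate 2 or 3 or control replicate 3 or 4 (adjusted p up to 0.123), with limma, with the replicate block or within either set (0.65 and 1.03), and lay between 0.57 and 0.83 in the other lines.

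HOXC8, the HOXC gene with the highest level per kb of exon, had 19.9, 24.3, 20.8 and 23.9 CPM in control. The Δ133p53α1 libraries had 20.4, 16, 12.6 and 14.9, those of Δ133p53α2 had 11.2, 25.6, 25.6 and 26.2, and those of Δ133p53α8 had 24, 18.7, 24 and 25.1. Those of Δ133p53β5 had 22.2, 20.5 and 17.6 and those of Δ133p53β10 had 24.5, 16.9, 12.9 and 18.5. All groups overlapped control, and Δ133p53α2 replicate 1 stood far below the other 3 libraries of its line. That library is the negative-set library of its line, and in each of the 6 lines every negative-set library had less HOXC8 than every positive-set library. The log2 differences of HOXC8 were -0.47 to 0.05, with adjusted p-values of 0.207 or higher. HOXC10 (0.1 to 0.34) and HOXC13 (0.03 to 0.64), the posterior end of the cluster, also passed in no line.

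The 8 members below the filter were read by their counts. HOXA11, the neighbour of HOXA10 on its posterior side, had 35 reads over the 4 control libraries and 1, 1, 4, 2 and 5 reads in Δ133p53α1, Δ133p53α2, Δ133p53α8, Δ133p53β5 and Δ133p53β10. The scaled ratio to control was 0.0356 in Δ133p53α1 (95% exact interval 0.000877 to 0.212) and 0.163 in Δ133p53β10 (0.0497 to 0.417). HOXA11 shares 27.2% of its exon length with HOXA11-AS on the other strand. HOXC11 had 0 reads in control and Δ133p53β5, 2 in Δ133p53β10, and 8, 12 and 7 in Δ133p53α1, Δ133p53α2 and Δ133p53α8. HOXD10 had 2 reads in control and 7 to 19 in the isoform lines, with a ratio of 10.2 in Δ133p53α8 (2.47 to 90.7). HOXA2 had 32 reads in control and 4 to 18 in the isoform lines, HOXC5 had 13 and 3 to 17, and HOXD12 had 4 and 0 to 6. A count of 0 allows up to 3 reads here, and no adjusted test applies to these genes.

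The clusters also hold antisense and other noncoding genes, of which 14 of 25 listed were tested and 3 were called in at least 1 line, against 7.37% of all genes. HOXA10-AS overlaps HOXA10, HOXA9 and MIR196B on the other strand with 62.3% of its exon length. Its control libraries had 2.49, 2.77, 2.62 and 2.28 CPM, against 0.217 to 0.762 in Δ133p53α1, 0.514 to 1.42 in Δ133p53α2 and 0.295 to 0.417 in Δ133p53α8. The Δ133p53β5 libraries had 1.18 to 2.06 and the Δ133p53β10 libraries 1.31 to 3.49. All Δ133p53α libraries were below control, as those of HOXA10 were. HOXA10-AS fell by 2.32, 1.42 and 2.86 on the log2 scale in Δ133p53α1, Δ133p53α2 and Δ133p53α8 (adjusted p = 0.000486, 0.0158 and 4.77e-05) and was 3.79-fold higher in the Δ133p53β mean than in the Δ133p53α mean (adjusted p = 1.5e-05), though libraries of Δ133p53α2 and Δ133p53β overlapped. It passed in 9, 10 and 10 of 11 alternatives in the Δ133p53α lines and in 11 of 11 between the isoforms. Across the 24 libraries its log level correlated with that of HOXA10 (Pearson r = 0.983). The libraries kept strand, but the strand setting of the counting was not stated, so reads of HOXA10 and of the antisense gene over shared exons cannot be told apart.

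HOXD-AS2 lies opposite HOXD8 and the start of HOXD3 and was higher in every isoform library than in the control libraries, which had 1.53, 1.79, 1.46 and 1.22 CPM. The lowest isoform library had 1.94 and the highest 7.25. HOXD-AS2 was called in Δ133p53α1 (1.6, adjusted p = 0.0157) and Δ133p53β10 (1.7, adjusted p = 0.00619), passed in Δ133p53α2 and Δ133p53β5 (1.37 and 1.38) and did not pass in Δ133p53α8 (1.09, adjusted p = 0.122). In the 4 lines where it passed, HOXD-AS2 did so in 9, 8, 7 and 9 of 11 alternatives, with values of 0.38 to 1.83 in Δ133p53α1 and 1.05 to 1.84 in Δ133p53β10. Its Pearson correlation with HOXD3 was 0.88. HOXD-AS2 shares 49.3% of its exon length with HOXD3 and HOXD8 on the other strand. As the strand setting of the counting was not stated, reads of these genes over shared exons cannot be told apart. HAGLROS, which lies between HOXD3 and HOXD1, was called in Δ133p53β10 at 1.95 (adjusted p = 0.0232), and HAGLROS passed there in 6 of 10 alternatives (0.75 to 1.98). HOTAIR, a noncoding gene of the HOXC cluster, had 0 reads in control and 3, 20, 6, 1 and 0 in the isoform lines in the order above, which is at least 1.86-fold higher in Δ133p53α2 against a floor of 3 reads per library.

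**Figure D4:**
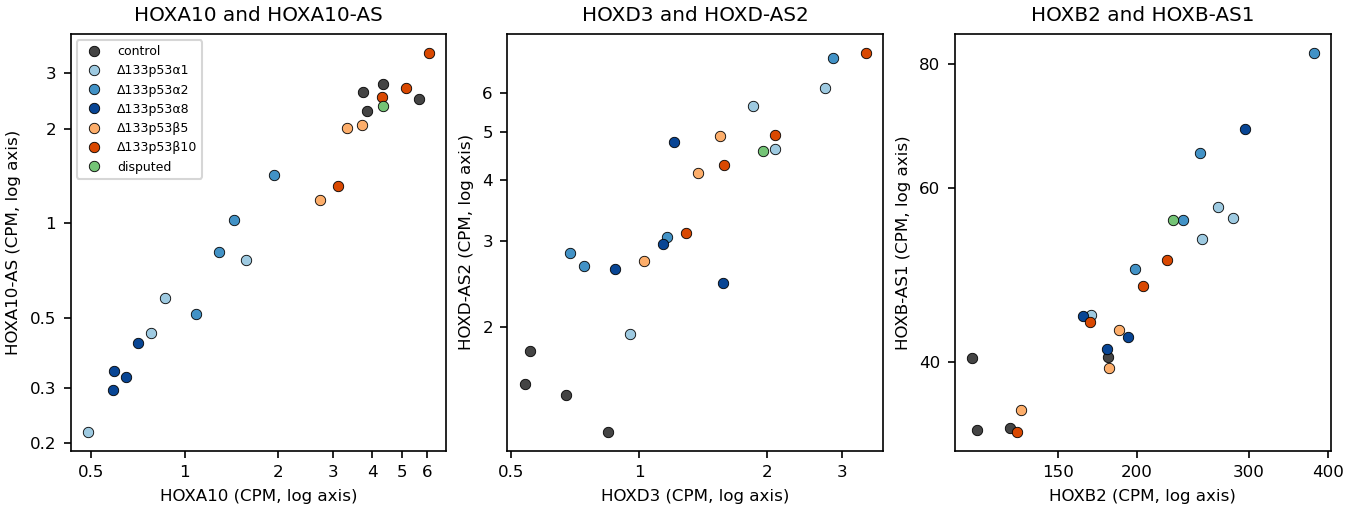
CPM of HOXA10, HOXD3 and HOXB2 (x axes, log scale) against an antisense gene of the same region (y axes, log scale) in 24 libraries, coloured by line. HOXA10 and HOXA10-AS ran together (Pearson r = 0.983), with the 12 Δ133p53α libraries at the low end, and the 4 control libraries held the lowest levels of HOXD-AS2.

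Genes outside the clusters that are known to bear on HOX expression were examined as lists. None of the 8 tested genes next to the clusters, 7 HOX cofactors of the PBX, MEIS and PKNOX families, 26 Polycomb genes, 14 Trithorax and H3K27 demethylase genes and 7 cluster boundary factors was called in any line. Of all genes, 7.37% were called in at least 1 line, so 0 calls says little about the shorter lists. By adjusted p alone, 1, 4, 3, 3 and 1 of the 26 Polycomb genes passed in Δ133p53α1, Δ133p53α2, Δ133p53α8, Δ133p53β5 and Δ133p53β10. In the same order, 4.87%, 5.31%, 4.48%, 7.98% and 9.82% of all genes passed. Of the Polycomb genes that passed, 0, 2, 2, 2 and 0 were higher than control in that order, and the rest were lower. Of the cofactors 1 passed in each of Δ133p53α1, Δ133p53α8 and Δ133p53β10, PBX3, which was named after its values were seen and was at -0.97, -0.71 and -1.02 (adjusted p = 0.0032, 0.0303 and 0.0011). Of the Trithorax list 1 passed in each Δ133p53β line, and of the neighbours and boundary factors 0 passed in any line. CBX7, a Polycomb reader named here after its values were seen, was lower in all 5 lines, at -0.98 to -1.34 (adjusted p = 0.00323 or lower), with 19.6 to 21.7 CPM in the control libraries and 6.3 to 12.8 in the isoform libraries. The catalytic Polycomb gene EZH2 had 65.9 CPM ± 9.58 in control and 54.5 to 64.3 in the isoform lines and passed in none.

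CDX2, a factor that acts on posterior HOX genes in the embryo and the gut, differed between the isoforms in the direction opposite to HOXA10. It had 2, 9, 6 and 2 reads in the control libraries, 12 to 39 in each Δ133p53α library and 1 or 0 in each Δ133p53β library and the disputed one. The scaled ratio to control was 7.8 in Δ133p53α1 (95% exact interval 4.78 to 13.4), 4.69 in Δ133p53α2 (2.81 to 8.19), and 3.97 in Δ133p53α8 (2.36 to 6.98), but for Δ133p53β5 it was 0.0783 (0.00188 to 0.492) and for Δ133p53β10 0.0599 (0.00144 to 0.377). CDX2 entered the test only through Δ133p53α libraries, since 0 control and 0 Δ133p53β libraries reached the filter's minimum, so it had to be higher there and its p-values are a description. It was past both thresholds in all 5 lines (adjusted p = 0.00163, 0.0142, 0.0394, 0.0395 and 0.0156) and between the isoforms (log2 -5.79, adjusted p = 1.03e-06). It was past the adjusted p threshold in 8, 8, 7, 5 and 8 of 10 alternatives in the 5 lines, with values of 1.75 to 4.44 in Δ133p53α1 and -5.49 to -1.92 in Δ133p53β10, and in 10 of 10 between the isoforms. Of the 9 retinoic acid genes tested, 2 were called in at least 1 line, against the same 7.37% of all genes. ALDH1A2, which makes retinoic acid, was at 1.88 in Δ133p53α1 (adjusted p = 0.0279, past the threshold in 7 of 11 alternatives) and at -1.98 for the Δ133p53β mean against the Δ133p53α mean (adjusted p = 0.00194). DHRS3, which lowers retinal, fell by 3.33 in Δ133p53β5 and 2.91 in Δ133p53β10 (adjusted p = 0.042 and 0.0357), and passed in 7 of 11 alternatives in each. In Δ133p53α1, Δ133p53α2 and Δ133p53α8 it was at -1.11, -1.09 and -1.9 and did not pass (adjusted p = 0.341, 0.557 and 0.241). Its difference between the isoforms, -1.75, did not pass either (adjusted p = 0.126).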

How the data were processed

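Poly(A) RNA of 24 libraries was sequenced with strand-marked libraries. The authors trimmed reads, used HISAT2 for alignment to GRCh38 and featureCounts for reads over the exons of each gene, and deposited whole-number counts with no normalization. The strand setting and the treatment of reads with several matches were not given in the sources used here. Counts of 60564 rows were fitted in R 4.3.3 with edgeR 4.0.16 (TMM scaling, filterByExpr, quasi-likelihood test, 17 residual degrees of freedom) with 1 term per line and 1 for the disputed library. P-values were adjusted over the 18295 genes tested (Benjamini-Hochberg). DESeq2 1.42.0 and limma 3.58.1 were alternatives, and the other settings tried are given in the closing section. The steps were tested on simulated data first. Totals per library ran from 21531599 to 25381731 counts. PCR reads carried no molecular identifiers, so intervals and floors (95% exact, 3 reads) cover counting error only. Exon lengths and overlaps came from GENCODE (GRCh38), and promoter windows from RefSeq (GRCh38.p14). Correlations used log2(CPM + 0.1). No 2 libraries of a line agreed within sampling noise (lowest chi-square per degree of freedom 15.8 over 33 pairs). Members named with values in every library were the HOX genes called in any comparison and the gene of each cluster with the highest level per kb of exon. From each other list at most 4 called genes were named, plus called genes within a cluster, with HOTAIR, CBX7, PBX3 and EZH2 added after their values were seen. The values of 1 HOX gene are not reported here, though counts and sums include it. The members and lists were chosen with earlier results of these data known.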

Additional observations from a re-analysis of the deposited data

Results flagged for a closer look

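In 4 of the 80 groups of 4 libraries examined over 16 HOX genes, 1 library stood far from the other 3. The gap to the nearest other library, as a share of the whole range, was 0.911 for HOXC4 in Δ133p53α8, 0.959 for HOXC8 in Δ133p53α2, 0.946 for HOXC9 in Δ133p53α2 and 0.928 for HOXD4 in Δ133p53α2. Each was above Dixon's 95% limit for groups of 4, which chance passes in about 1 of 20 groups. The library that stood apart for HOXC8 and HOXC9 was replicate 1, the only Δ133p53α2 library of the negative length set. For HOXC4 it was replicate 2, the only Δ133p53α8 library of that set, whereas for HOXD4 it was not a negative-set library. The part of the set in these was not tested.

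Between the isoforms, 4 HOX genes differed by a direct test of the Δ133p53β mean against the Δ133p53α mean. Of these, HOXB3 and HOXB9 passed against control in no line. The log2 differences were 2.03 for HOXA10, -0.39 for HOXB3, -0.82 for HOXB9 and -0.71 for HOXC4.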

How the results depend on the processing

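Among 35 pairs of HOX gene and comparison past the adjusted p threshold, 376 alternative values were computed with all libraries or 1 length set, of which 277 stayed past it, 99 did not and 0 reversed. With 1 library left out, 660 of 793 stayed past it and 0 reversed. HOXD11, whose values are a description, is counted among the 35 pairs and the calls below. It was not tested with a mean of at least 1 CPM, where 26 HOX genes were tested. Nor was it tested with the disputed library in Δ133p53β5, where 30 were tested. The number of HOX genes called moved by over 1.5 times as follows. Apart from HOXD11 leaving the test, what moved it was not tested. In Δ133p53α1 (4 called) it was 2 with a mean of at least 1 CPM, 2 with the length set as a term, 1 in the positive set and 0 in the negative set. In Δ133p53α2 (2 called) it was 1 with limma, 1 with a mean of at least 1 CPM, 8 at a fold change of 1.5, 1 with the disputed library in Δ133p53β5, 1 in the positive set and 0 in the negative set. In Δ133p53α8 (2 called) it was 1 with limma, 1 with a mean of at least 1 CPM, 6 at a fold change of 1.5, 1 with the replicate block, 1 with the disputed library in Δ133p53β5 or Δ133p53β10 and 0 in the negative set. In Δ133p53β5 (0 called) it was 1 with no filter and 4 at a fold change of 1.5. In Δ133p53β10 (3 called) it was 7 at a fold change of 1.5, 1 with the length set as a term and 0 in either set alone. Between the isoforms (1 called) it was 3 at a fold change of 1.5. For any difference among lines (8) it was 13 with DESeq2, 13 with the length set as a term, 2 in the positive set and 0 in the negative set. The number over all genes moved too. For any difference among lines it was 1841 in the main fit, 3728 with DESeq2 and 3719 with the length set as a term. At a fold change of 1.5 it was 945 in Δ133p53α2 (513 in the main fit), 807 in Δ133p53α8 (457) and 1442 in Δ133p53β5 (769). It was 1742 in Δ133p53β10 (859) and 720 between the isoforms (256). With the length set as a term it was 519 in Δ133p53α1 (474) and 935 in Δ133p53β10 (859). The set-only fits were chosen after seeing the data. The negative set has 1 library each of control, Δ133p53α2 and Δ133p53α8, and the positive set 1 each of Δ133p53α1, Δ133p53β5 and Δ133p53β10. These single libraries were assumed to vary like the other groups.

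With 1 library left out, counts ran from 1 (without Δ133p53α1 replicate 2) to 4 in Δ133p53α1, from 0 (without control replicate 1) to 3 in Δ133p53α2, from 1 to 3 in Δ133p53α8, from 0 to 1 (without control replicate 4) in Δ133p53β5, from 0 (without Δ133p53β10 replicate 3) to 4 in Δ133p53β10, and from 5 to 12 (without Δ133p53α1 replicate 1) for any difference among lines. Between the isoforms the count was 1 throughout. No pairing of libraries by replicate number was seen. Same-number correlations ran from -0.88 to 0.889 with a median of 0.00802, and 6 of 23 libraries correlated best with their own number. The length sets were not removed first, so a pairing beneath them was not tested. With the replicate block the counts in the other comparisons were 3 in Δ133p53α1, 2 in Δ133p53α2, 0 in Δ133p53β5, 3 in Δ133p53β10, 1 between the isoforms and 6 among lines. Depth limits what can be said of HOXD11 and of the 8 HOX genes below the filter.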
